A study of Saccharomyces cerevisiae with 14 samples.

Results

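RNA polymerase III is the enzyme that makes tRNAs and other short structural RNAs. The 10 genes described here encode the subunits that belong to this enzyme alone. They were taken by systematic name from a table of 6664 genes measured in 14 libraries of messenger RNA from the budding yeast Saccharomyces cerevisiae, and all 10 were found. Wild-type cells were BY4741 (MATa his3Δ1 leu2Δ0 met15Δ0 ura3Δ0), a standard laboratory strain, and deletion cells had the same markers with fpt1::KanMX, a drug-resistance cassette in place of FPT1. All cells thus lack the same 4 marker functions. Per the labels, deletion replicates 1 to 3 in each medium are strain NKI5633 and deletion replicate 4 is strain NKI5620. Fpt1 is known to sit on tRNA genes and other templates of this enzyme. Mid-log cultures in the glucose medium YEPD made up the glucose groups, and the ethanol groups were then switched to ethanol for 2 h at 30 °C. There were 3 wild-type and 4 deletion samples in each medium, 1 library per sample, and no label says whether replicates came from separate cultures, so p-values reflect only how far these samples scatter, and some of that scatter may be technical.

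The enzyme shares part of its structure with RNA polymerases I and II and adds parts of its own. RPO31 and RET1 encode the large subunits that form the catalytic cleft. RPC82, RPC34 and RPC31 encode a heterotrimer that works in initiation, RPC53 and RPC37 a heterodimer related to the factor TFIIF that works in initiation and termination, RPC25 and RPC17 the stalk, and RPC11 a small subunit that cleaves RNA and is needed for termination. In growing yeast this enzyme serves the demand for protein synthesis, and its repressor Maf1 lowers its activity when nutrients are poor.

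The letters before the start codons are shown first because most of these genes carry a box named after RNA polymerases A and C, older names of I and III. In the 300 bases before each start codon, the core of this PAC box, GATGAG on either strand, was found for 8 of 10 members, against 19.1% of 6001 nuclear coding genes. The nearest site to the start codon in each of these promoters is printed 5′ to 3′ on the strand that reads GATGAG, with the core in capitals (R64 assembly of S288C, 30 bases each).
RPO31 (chrXV:544226-544255, plus strand, core 98 to 93 bases before the start codon): taaccaaccagtGATGAGtttaaaaattta
RET1 (chrXV:733569-733598, minus strand, core 129 to 124 bases before the start codon): ttgtaattgtgaGATGAGctgaaaattttt
RPC82 (chrXVI:919146-919175, plus strand, core 122 to 117 bases before the start codon): ttccttcaatgcGATGAGcttttgaaaaat
RPC34 (chrXIV:635341-635370, minus strand, core 61 to 56 bases before the start codon): atgtatttgtgaGATGAGatcattacagaa
RPC31 (chrXIV:348587-348616, plus strand, core 83 to 78 bases before the start codon): ataggttgctgcGATGAGgaaactattttc
RPC53 (chrIV:183091-183120, plus strand, core 240 to 235 bases before the start codon): gagctatgatgaGATGAGcttcattattga
RPC37 (chrXI:487695-487724, plus strand, core 63 to 58 bases before the start codon): ataaaagcgagaGATGAGcttaaatgatct
RPC25 (chrXI:176658-176687, plus strand, core 194 to 189 bases before the start codon): aaaattttaagcGATGAGcatcgcctgaat

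RPC82, RPC31, RPC37 and RPC25 held the longer form GCGATGAG, which contains the core and occurred in 4.05% of all promoters. In RPC37 it lay in a more distant site, 264 to 259 bases before the start codon, and in the other members in the site printed above. RPC53 held 3 cores close together, between 255 and 235 bases before the start codon, the last 2 of which share a base. RPO31 held a second core at 297 to 292 bases. A further known element of ribosome production genes, the ribosomal RNA processing element (RRPE, core AAAATTTT, which reads alike on both strands), was found for RET1, RPC82, RPC34, RPC53 and RPC25, against 9.42% of all promoters. In RET1 the core of this element followed the PAC core after a gap of 3 bases. RPC17 and RPC11 held neither set of letters in this window. A match describes letters and shows no binding.

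**Figure D1:**
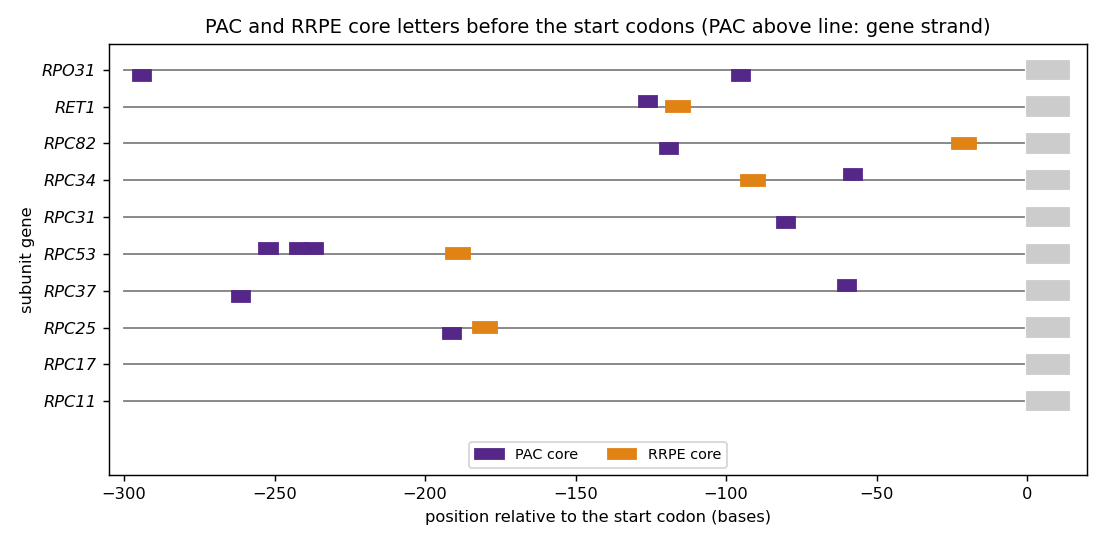
Positions of the PAC and RRPE core letters in the 300 bases before the start codon of each member, with the start of the coding region as a grey box; PAC cores above the line lie on the strand of the gene and those below on the other strand. Sites lie from 297 to 18 bases before the start codon, and RPC17 and RPC11 have none.

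Levels are given as the authors deposited them, in FPKM, the usual fragment count scaled to gene length and to the library's mapped total. FPT1 checked the labels: it lay at 51.9 to 158 FPKM in the 6 wild-type libraries and at 0 to 0.412 in the 8 deletion libraries. The median over all genes was 47.8 to 54.0 FPKM per glucose library and 59.6 to 63.5 FPKM per ethanol library. The values reach down to 3.09e-25, far below what 1 whole read could give, so reads were not recovered from them, and read depth is not given in the sources used here. Of the 7 ethanol libraries, deletion replicates 2 and 4 held the highest pair of values for all 10 members. The share of all genes with this pattern among the 7 was not counted. Among the 4 deletion ethanol libraries alone, replicates 2 and 4 were the highest pair for 21.3% of all genes tested. Genes outside the members shared the pattern, such as RPA12 of RNA polymerase I. It stood at 201 and 188 FPKM in this pair and at 109 or less in the other ethanol libraries. Tests of the members that rest on replicates 2 and 4 are summarised also without them, and those of other genes are not. This pair was picked for its high values, so leaving it out lowers the deletion ethanol mean of every member in advance.

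In glucose the 10 genes spanned 7.18-fold in wild type, from RPC82 at 85.6 ± 2.12 FPKM to RPC11 at 615 ± 33.0 (SD, n = 3). Without RPC11 the span was 2.83-fold. The order from high to low was RPC11, RPC31, RPC17, RPC25, RPC34, RPC37, RPC53, RPO31, RET1 and RPC82. Among neighbours in this order, the libraries of RPC25 and RPC34 overlapped, as did those of RPO31 and RET1, and the other neighbours did not overlap. The order largely followed coding length, with the longest genes at the low end, from 4383 bases for RPO31 to 333 bases for RPC11 (Spearman's rho = -0.903 over the 10 genes, a description, against -0.261 over 5730 annotated coding genes tested). Whether the authors' FPKM values correct for the reduced effective length of short genes is not given in the sources used here, so the level of RPC11 against longer genes is uncertain.

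The main question for these genes is how they respond to the loss of glucose. After 2 h in ethanol, 9 of the 10 members fell in wild type and the same number fell in the deletion, while RPC11 passed the test in neither. The falls in wild type ran from 1.94-fold for RPC25 to 3.14-fold for RPC53 as ratios of mean FPKM. The genes of the initiation subunit RPC82 and of RPC53 fell most, and those of the stalk, RPC31 and RPC37 fell least among the 9. Over all genes tested, 24.8% fell in wild type and 27.7% in the deletion. In wild type 9 members had every ethanol library below every glucose library, as did 25.9% of all genes. In the deletion the same was true of 9 members and of 25.7% of all genes. Without deletion ethanol replicates 2 and 4 the same count of 9 members fell in the deletion, and the median log2 change of the 10 went from -0.88 to -1.05. The direction of this shift was fixed by leaving out the highest pair. The estimate of RPC17 moved most, from -0.67 to -1.01, and RPC11 stood at -0.24 (adjusted p = 0.139, limma). These are bulk libraries scaled to their own totals, in which fewer cells with a transcript and less transcript per cell cannot be told apart.

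**Figure D2:**
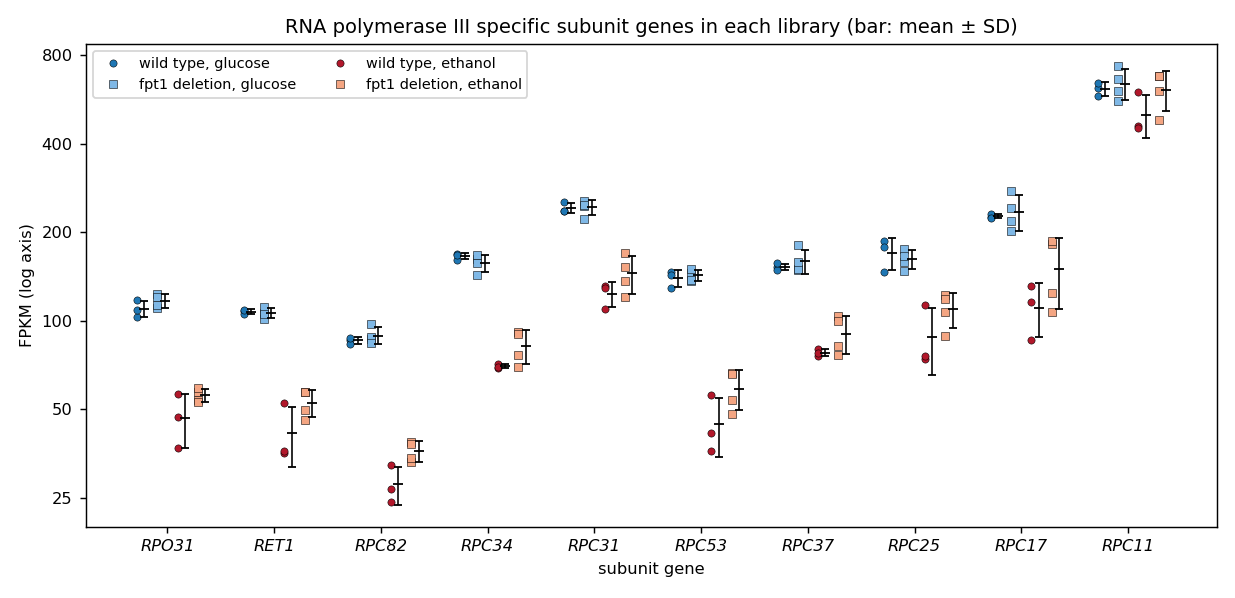
FPKM (log axis) of each member in each of the 14 libraries, with 3 libraries per wild-type group and 4 per deletion group; black bars give the mean and SD. For 9 genes every ethanol library lies below every glucose library of the same strain, and for RPC11 the groups overlap.

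The catalytic subunits fell together. RPO31 (YOR116C, chromosome XV, 539763 to 544145 in R64, minus strand) encodes the largest subunit, and stood at 117, 103 and 108 FPKM in wild-type glucose libraries and at 36.8, 47.0 and 56.1 in wild-type ethanol libraries. In deletion libraries it stood at 109.95, 123, 120.3 and 113 FPKM in glucose and at 53.8, 57.1, 53.0 and 59.1 in ethanol. In both strains all glucose libraries lay above all ethanol libraries. The log2 change was -1.23 ± 0.12 in wild type (SE, adjusted p = 2.54e-07) and -1.05 ± 0.10 in the deletion (adjusted p = 3.56e-07), by limma on log2(FPKM + 1), a scale on which fold changes of low genes are understated. RET1 (YOR207C, chromosome XV, 730008 to 733457, minus strand), the second-largest subunit, stood at 108, 105 and 109 FPKM in wild-type glucose libraries and at 35.5, 36.0 and 52.5 in wild-type ethanol libraries, where replicate 3 was the high one. Its deletion libraries stood at 106, 111, 101 and 105 FPKM in glucose and 46.1, 57.2, 49.7 and 57.0 in ethanol. It fell by 1.38 ± 0.12 on the log2 scale in wild type (adjusted p = 1.91e-07) and by 1.00 ± 0.11 in the deletion (adjusted p = 1.28e-06).

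Within the initiation heterotrimer the estimate of RPC82 was the furthest from 0. RPC82 (YPR190C, chromosome XVI, 917077 to 919041, minus strand), the lowest of the 10 genes in every group, stood at 86.1, 83.3 and 87.5 FPKM in wild-type glucose libraries and 24.2, 26.7 and 32.2 in wild-type ethanol libraries. Its deletion values were 86.3, 97.4, 88.3 and 83.8 FPKM in glucose and 33.0, 38.7, 34.0 and 38.2 in ethanol, and all 4 of the latter lay above all 3 wild-type ethanol values. The log2 change was -1.60 ± 0.10 in wild type (adjusted p = 4.14e-09) and -1.28 ± 0.08 in the deletion (adjusted p = 1.01e-08). RPC34 (YNR003C, chromosome XIV, 634344 to 635297, minus strand), the subunit known to contact the initiation factor Brf1, was steady within groups of wild type, at 161, 168 and 167 FPKM in glucose and 69.1, 71.1 and 69.8 in ethanol. In deletion libraries it held 142, 162, 156 and 167 FPKM in glucose and 69.6, 91.7, 76.4 and 90.0 in ethanol, a wider spread. It fell by 1.23 ± 0.09 on the log2 scale in wild type (adjusted p = 3.27e-08) and by 0.94 ± 0.08 in the deletion (adjusted p = 1.42e-07). RPC31 (YNL151C, chromosome XIV, 347766 to 348521, minus strand), the acidic partner of both, went from 236, 253 and 237 to 131, 109 and 129 FPKM in wild type and from 222, 256, 245 and 248 to 120.1, 152, 136 and 169.9 in the deletion. Its falls were smaller, 0.97 ± 0.11 on the log2 scale in wild type (adjusted p = 1.79e-06) and 0.75 ± 0.10 in the deletion (adjusted p = 6.21e-06).

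Of the TFIIF-like heterodimer, RPC53 fell further than RPC37. RPC53 (YDL150W, chromosome IV, 183343 to 184611, plus strand) stood at 147, 129 and 143 FPKM in wild-type glucose libraries and at 36.1, 41.5 and 55.7 in wild-type ethanol libraries. In the deletion it stood at 137, 145, 138 and 150.3 FPKM in glucose and 48.2, 66.6, 53.7 and 66.0 in ethanol. This was the largest log2 change among the 10 in wild type, -1.65 ± 0.14 (adjusted p = 1.31e-07), with -1.28 ± 0.12 in the deletion (adjusted p = 4.61e-07). Its partner RPC37 (YKR025W, chromosome XI, 487770 to 488618, plus strand) stood at 152, 149 and 157 FPKM in wild-type glucose libraries and at 75.7, 80.2 and 77.6 in wild-type ethanol libraries, with little spread in either. The deletion libraries of RPC37 held 149, 149, 158 and 181 FPKM in glucose and 76.1, 103, 82.1 and 99.8 in ethanol, with replicates 2 and 4 the high ones in ethanol. RPC37 fell by 0.96 ± 0.11 on the log2 scale in wild type (adjusted p = 1.48e-06) and by 0.82 ± 0.09 in the deletion (adjusted p = 2.01e-06).

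In ethanol the highest coefficients of variation among the members belonged to the stalk genes, 25.3% for RPC25 in wild type and 27.0% for RPC17 in the deletion. RPC25 (YKL144C, chromosome XI, 175843 to 176481, minus strand), the counterpart of Rpb7 in RNA polymerase II, went from 146, 186 and 177 to 73.8, 76.0 and 113 FPKM in wild type and from 147, 159, 176 and 166 to 88.6, 122, 107 and 119 in the deletion. RPC17 (YJL011C, chromosome X, 414285 to 414770, minus strand), its partner and the counterpart of Rpb4, went from 225, 230.4 and 224 to 115, 85.7 and 131 FPKM in wild type and from 218, 202, 241 and 277 to 107, 182, 124 and 187 in the deletion. In neither gene did media overlap within a strain. RPC25 fell by 0.97 ± 0.16 on the log2 scale in wild type (adjusted p = 6.69e-05) and by 0.57 ± 0.14 in the deletion (adjusted p = 0.00174), and RPC17 by 1.05 ± 0.20 (adjusted p = 0.000306) and 0.67 ± 0.18 (adjusted p = 0.00331).

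RPC11 (YDR045C, chromosome IV, 547978 to 548310, minus strand), the cleavage subunit, was the member that passed in neither strain. It stood at 620.4, 645 and 579.7 FPKM in wild-type glucose libraries and at 598, 457 and 451 in wild-type ethanol libraries, and replicate 1 of the latter lay within the glucose range. In deletion libraries it held 604, 557, 661 and 735 FPKM in glucose and 482, 681, 602 and 678 in ethanol, and the groups overlapped. The log2 change was -0.30 ± 0.14 in wild type (adjusted p = 0.0691) and -0.07 ± 0.12 in the deletion (adjusted p = 0.613). This call depends on the scaling. The median change of all genes was 0.31 in wild type and 0.19 in the deletion, and when the median of each library was set equal, RPC11 fell by 0.62 on the log2 scale in wild type (adjusted p = 0.00377), while in the deletion it stood at -0.29 and did not pass (adjusted p = 0.0885). Quantile normalization gave -0.82 in wild type and -0.57 in the deletion (adjusted p = 2.77e-05 and 0.000211). Leaving out wild-type ethanol replicate 1 also moved RPC11 past the threshold, at -0.44 (adjusted p = 0.0151). The split of all genes called in wild type moved from 67.0% higher to 49.8% higher under median scaling, and the other 9 members were called lower under both scalings in both strains.

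**Figure D3:**
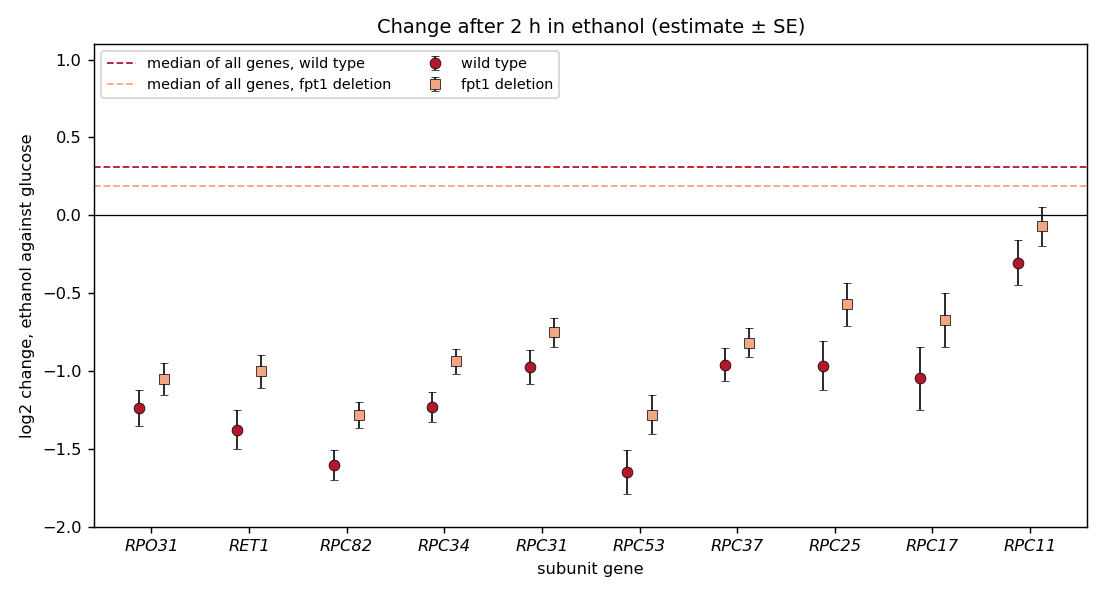
Log2 change from glucose to ethanol of each member in wild type (circles) and the FPT1 deletion (squares), with SE; dashed lines give the median change of all genes in each strain, 0.31 and 0.19. In 9 of 10 genes both estimates lie between -0.57 and -1.65, and RPC11 lies nearest to 0.

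A scaling factor for a whole library drops out of a ratio of partner genes, apart from the effect of the added 1, whereas quantile normalization can change it. Such ratios were used to ask whether partners changed by the same factor. There were 5 pairs chosen by their place in the enzyme, each tested between media and between strains (10 tests), by an exact two-sided permutation test within strata. The ratio RPC53/RPC37, each as FPKM + 1, was 0.833 to 0.975 in the 7 glucose libraries and 0.484 to 0.722 in the 7 ethanol libraries, with no overlap. The ratio RPC82/RPC31 was 0.332 to 0.391 in glucose and 0.192 to 0.281 in ethanol, and RPC82/RPC34 was 0.498 to 0.609 and 0.360 to 0.481. These log2 ratios dropped by 0.58, 0.58 and 0.36 in ethanol. Each had p = 0.00143 in the exact permutation test with 1400 regroupings, the smallest it can give, and an adjusted p of 0.00476. Without deletion ethanol replicates 2 and 4 they dropped by 0.58, 0.55 and 0.33, each with an adjusted p of 0.0111 in the exact permutation test. For the catalytic pair RPO31/RET1 the ethanol minus glucose difference was 0.05 and for the stalk pair RPC25/RPC17 it was 0.09, with media overlapping in both (adjusted p = 0.649 and 0.5 in the same exact permutation test). Without deletion ethanol replicates 2 and 4 these 2 differences were 0.08 and 0.18 (adjusted p = 0.405 and 0.233, exact permutation test). Between strains the 5 differences ran from -0.10 to 0.14, and none passed (lowest adjusted p = 0.12, exact permutation test). None passed without that pair of libraries either. The lowest adjusted p was that of RPC82/RPC34, whose log2 difference was 0.17 (adjusted p = 0.179, exact permutation test).

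**Figure D4:**
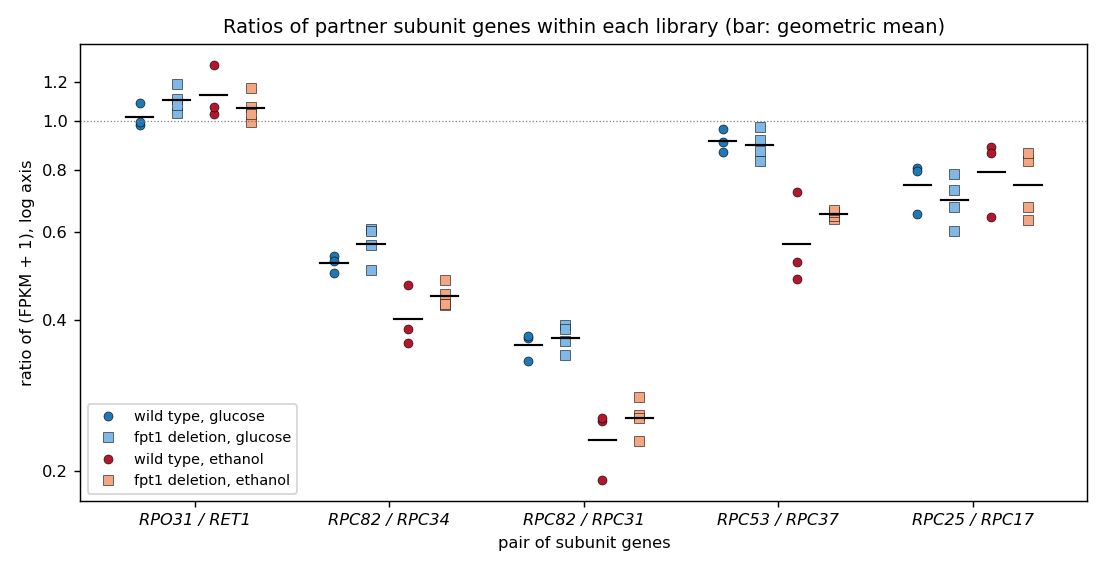
Ratio of FPKM + 1 between partner subunit genes in each of the 14 libraries (log axis); horizontal bars give the geometric mean of each group. The ratios RPC82/RPC34, RPC82/RPC31 and RPC53/RPC37 are lower in all 7 ethanol libraries than in all 7 glucose libraries, while RPO31/RET1 and RPC25/RPC17 overlap between media.

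With these unequal falls the 10 levels spread apart, from a span of 7.18-fold in wild-type glucose libraries to 18.1-fold in wild-type ethanol libraries, and from 7.19-fold to 17.0-fold in the deletion. Without RPC11 the span went from 2.83-fold to 4.44-fold in wild type. RPC53 lay above RPO31 without overlap in glucose in both strains, and in ethanol its libraries overlapped with those of RPO31 in both strains. RPO31 and RET1 already overlapped in glucose. Longer genes fell further among the members (Spearman's rho between coding length and log2 change -0.77 in wild type and -0.891 in the deletion, over 10 genes, as a description). Over the 5730 annotated coding genes tested the same coefficients were -0.253 and -0.299. Among the 10 members the level in glucose gave coefficients of the same size with log2 change, 0.77 and 0.891. Length and level thus cannot be told apart among the members. Over the 5730 genes the coefficients of level had the opposite sign, -0.281 and -0.236.

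Over the 14 libraries, which the medium divides, the 36 pairs among the 9 members other than RPC11 had Pearson correlations of log2 levels from 0.871 to 0.996, and the 9 pairs with RPC11 from 0.410 to 0.745. Deviations from the group means gave -0.379 to 0.923 over all 45 pairs, with a median of 0.615. These libraries share their medium, their totals and any batch, so the coefficients are a description. The annotated genes outside the set whose levels followed RPO31 most closely were YGR054W, a translation initiation factor, PPR1, an activator of pyrimidine synthesis genes, VTS1, an RNA-binding protein, CDC6, needed to license replication origins, and BUD27, a prefoldin-like protein known to act in assembly of RNA polymerases (r = 0.993 to 0.995 over 14 libraries). Levels of 1095 of 5733 annotated genes correlated with RPO31 above 0.9. The closest gene to RET1 was RRP5 and to RPC53 was BMS1, both known in ribosomal RNA processing (r = 0.999 for both), to RPC82 TIF4631, a translation initiation factor (0.999), to RPC34 and RPC37 BUD20, of the large ribosomal subunit's export (0.997 and 0.992), to RPC31 the uncharacterised YJR124C (0.993), to RPC25 RPA34 of RNA polymerase I (0.981), to RPC17 the ribosomal protein gene RPS10A (0.988) and to RPC11 TMA19 (0.902), a ribosome-associated protein.

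The members were set beside the other subunits of the nuclear RNA polymerases. The subunits shared by I and III fell like the members: RPC40 from 551 ± 25.7 to 193 ± 29.8 FPKM and RPC19 from 601 ± 28.1 to 286 ± 26.6 FPKM in wild type (SD, n = 3), with log2 changes of -1.52 and -1.07 (adjusted p = 2.61e-07 and 6.2e-06). Among the 5 subunits common to all these enzymes, 4 fell in wild type and 3 in the deletion, against 24.8% and 27.7% of all genes. RPB8 had the largest of these log2 changes, -1.66 in wild type and -1.13 in the deletion, RPB5 changed by -0.68 and -0.54, and RPB10 by -0.69 and -0.46. RPC10 fell by 0.77 on the log2 scale in wild type and differed by -0.22 in the deletion without passing (adjusted p = 0.231), and RPO26 passed in neither strain, at -0.11 and -0.04. Under median scaling all 5 were called lower in both strains, as were 37.7% of all genes in wild type and 38.6% in the deletion.

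All 7 subunits found in RNA polymerase I alone fell in both strains, with a median log2 change of -2.05 in wild type and -1.53 in the deletion, from RPA135, the second-largest subunit, at -2.67 and -1.83, to RPA14 at -0.91 and -0.77. Among all genes 24.8% fell in wild type and 27.7% in the deletion. The median of the 10 members was -1.14 and -0.88. Of the 7 subunits of RNA polymerase II alone, 3 rose and 2 fell in each strain, with medians of 0.03 and 0.18, while 50.5% of all genes rose in wild type and 46.9% in the deletion. Under median scaling 1 rose and 3 fell in each strain, with medians of -0.29 and -0.04. Its largest subunit RPO21 changed by -0.46 and -0.58, and its stalk subunit RPB4, the counterpart of RPC17, by 0.93 and 0.74. Medians over all genes were 0.31 and 0.19. Differences between these lists were not tested.

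**Figure D5:**
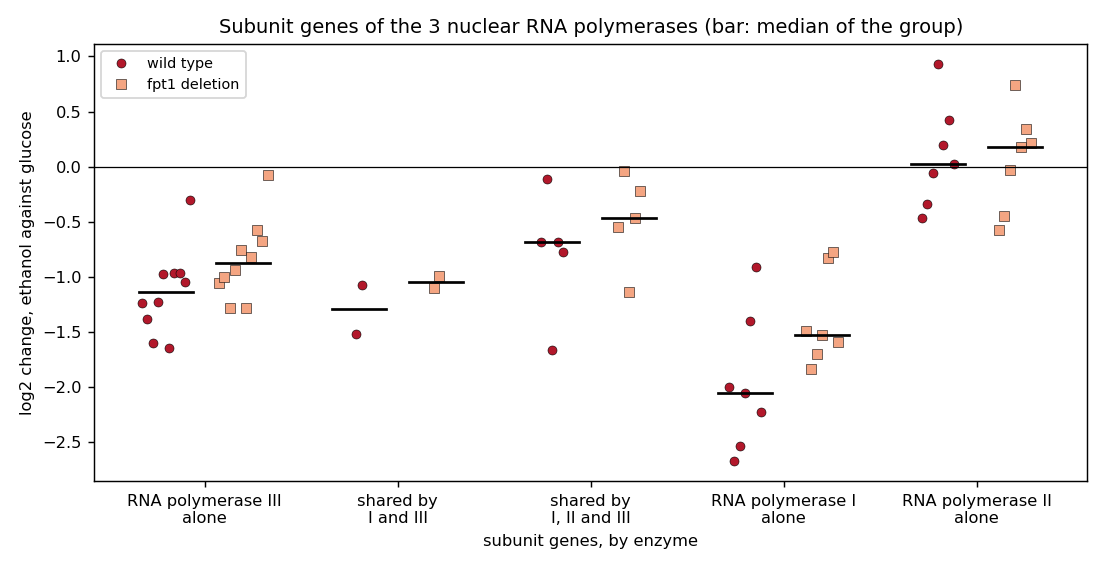
Log2 change from glucose to ethanol of the subunit genes of the 3 nuclear RNA polymerases in wild type (circles) and the FPT1 deletion (squares), grouped by the enzymes that hold them; horizontal bars give group medians. Genes of RNA polymerase I alone lie lowest (median -2.05 in wild type), those of III alone at a median of -1.14 and those of II alone around 0.

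The PAC core was found before both subunits shared by I and III, before 6 of the 7 RNA polymerase I genes, before 0 of the 5 common subunits, 0 of the 7 of RNA polymerase II, 2 of the 12 factor genes (TFC6 and LHP1) and 4 of the 8 assembly and import genes (BUD27, IWR1, GPN3 and RTP1). RPB8, RPC17 and RPA12 fell and do not hold the PAC core in this window. The same was true in wild type of the subunit genes RPB5, RPB10, RPC10, RPO21 and RPB2. It was also true there of PZF1 and SPT15 among the factor genes and of RBS1, NPA3 and GPN2 among the assembly and import genes. TFC6 and IWR1 hold the core and rose, by 0.73 and 1.25 on the log2 scale in wild type. Genes in these sentences beyond the subunits were named after their values were seen. Over all genes tested, 46.2% of 1066 with the PAC core fell in wild type, against 21.8% of 4664 without it, and 80.8% of 266 with both PAC and RRPE cores, with a median log2 change of -1.38. The 5 members with both cores (RET1, RPC82, RPC34, RPC53 and RPC25) changed by -0.97 to -1.65 in wild type. Those with the PAC core alone lay in or near this range, with RPO31 at -1.23, RPC31 at -0.97 and RPC37 at -0.96. Of the members with neither core, RPC17 changed by -1.05 and RPC11 by -0.30.

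Of 12 genes for TFIIIA, TFIIIB, TFIIIC, Maf1 and the La protein, 7 rose and 3 fell in wild type, and 4 rose and 3 fell in the deletion. Over all genes 50.5% rose and 24.8% fell in wild type, and 46.9% and 27.7% in the deletion. The lowest log2 changes were those of LHP1, the La protein that binds new RNA polymerase III transcripts, at -1.17 in wild type, and of PZF1, which is TFIIIA, at -0.86 in the deletion. The highest was that of the repressor gene MAF1, at 1.60 and 1.13. Under median scaling 3 rose and 5 fell in wild type, and 2 rose and 6 fell in the deletion, while 37.4% and 36.6% of all genes rose and 37.7% and 38.6% fell. Of 8 genes for polymerase assembly or nuclear import, 6 fell and 2 rose in each strain, against 24.8% and 27.7% of all genes that fell. These counts were alike under median scaling, where 37.7% and 38.6% of all genes fell. Log2 changes ran from BUD27 at -1.99 and -1.70 to IWR1 at 1.25 in wild type and RTR1 at 0.95 in the deletion. IWR1 is known to direct RNA polymerase II to the nucleus.

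The second question is whether loss of FPT1, a protein of RNA polymerase III genes, alters the messenger RNAs of the enzyme itself. In glucose, limma called 0 of 10 members, and 0 had an unadjusted p under 0.05, against 0.0319% of all genes called and 11.5% with an unadjusted p under 0.05. Log2 differences of the members, deletion minus wild type, ran from -0.08 for RPC34 to 0.09 for RPO31, with 95% intervals that lay within -0.38 and 0.45. The median of the members was 0.04 and that of all genes 0.08. Estimates lay above 0 for 7 of 10 members, against 73.1% of all genes. Under median scaling they did so for 0 of 10 members and under quantile normalization for 3 of 10, so these directions follow the scaling. The deletion group lay wholly above wild type for 0 members and 15.6% of all genes, and wholly below it for 0 members and 2.12% of all genes.

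In ethanol all 10 members had higher estimates in the deletion than in wild type, and none passed the test. Log2 differences ran from 0.20 for RPC37 to 0.42 for RPC17, with a median of 0.31, while the median of all genes was -0.04. For RPC82, wild type held 27.7 ± 4.10 FPKM (SD, n = 3) and the deletion 36.0 ± 2.90 (SD, n = 4), a difference of 0.37 ± 0.09 (adjusted p = 0.107), and was the 1 member whose groups did not overlap, against 3.24% of all genes with the deletion above wild type. RPC53 differed by 0.40 ± 0.13 on the log2 scale (adjusted p = 0.124) and RET1 by 0.36 ± 0.12 (adjusted p = 0.121). Limma called 0 of 10 members higher, against 0% of all genes, and 8 of 10 had an unadjusted p under 0.05, against 24.1% of all genes. Estimates above 0 were found for 42.5% of all genes.

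Single libraries decided these calls. Leaving out wild-type ethanol replicate 3 brought 5 members past the threshold and leaving out deletion ethanol replicate 1 brought 7. In those fits 964 and 912 of the 6267 genes tested passed in either direction. Wild-type ethanol replicate 3 was the highest of its group for 6 of 10 members. Deletion ethanol replicate 1 was the lowest of its group for 9 of 10. Leaving out either library thus raises the difference for most members in advance, so the added calls are no separate support. Without deletion ethanol replicates 2 and 4 the 10 estimates had to shrink, because this pair held the highest values. They stayed above 0, between 0.02 and 0.27, with a median of 0.15 and a lowest adjusted p of 0.825 (limma). The mean log2(FPKM + 1) of the members was 6.75 and 6.76 in deletion ethanol replicates 2 and 4, and 6.35 and 6.50 in replicates 1 and 3. In wild-type ethanol libraries it was 6.20, 6.18 and 6.46, and in the 7 glucose libraries 7.35 to 7.51. Replicates 2 and 4 thus lay nearest to glucose, and for 21.3% of all genes tested they were the highest pair of the 4. Replicate 4 alone bears the second strain name, and replicate 2 shares its name with 1 and 3.

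The difference of the responses, deletion minus wild type, tests directly whether the fall in ethanol was smaller without FPT1. It was above 0 for all 10 members, from 0.14 for RPC37 to 0.39 for RPC25, with a median of 0.31 against -0.12 for all genes. Of all genes, 31.9% had a difference above 0. All 7 subunits of RNA polymerase I alone also lay above 0, with a median of 0.57, as did the 2 shared by I and III and the 5 common subunits. Of the 7 of RNA polymerase II alone, 2 did. Limma called 0 of 10, with 3 at an unadjusted p under 0.05 (RET1, RPC82 and RPC34), against 0% of all genes called and 25.6% at an unadjusted p under 0.05. The lowest adjusted p among the members was 0.163, for RPC82 at 0.32 ± 0.13. Leaving out wild-type ethanol replicate 3 brought 3 members past the threshold (RET1, RPC82 and RPC25), and leaving out deletion ethanol replicate 1 brought RPC34. In those fits 654 and 844 of the 6267 genes tested passed in either direction. As in the preceding comparison, leaving out either library raises the difference for most members in advance. Without deletion ethanol replicates 2 and 4 the estimates ran from -0.04 to 0.25, 9 of 10 above 0, with a lowest adjusted p of 0.55 (limma). Smaller estimates follow here too from leaving out the highest pair. This comparison shares its ethanol libraries with the preceding one.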

How the data were processed

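Poly(A) RNA of 14 samples was read as stranded libraries of 65-base single reads, per the labels' protocols. The submitters' processing notes name STAR 2.7.1a and the genome build sacCer3. The authors deposited FPKM values in 1 table; how these were counted, and whether by strand, is not given in the sources used here. Columns matched samples by description. No gene with an entry in the R64 annotation used here overlaps a member (5989 of 6664 table rows had an entry). The 675 table rows without an entry were not checked for overlap with a member.

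A gene was tested where 3 or more samples reached 1 FPKM (6267 genes, all 10 members among them). Values were fitted as log2(FPKM + 1) with limma 3.58.1 in R 4.3.3 (1 mean per group, empirical Bayes with a trend), with Benjamini-Hochberg adjustment over all genes in each of 5 two-sided comparisons and a threshold of 0.05. The fit and the permutation test were tested on simulated data. Alternatives were pseudocounts 0.1 and 5, no filter or 5 FPKM, 2 scalings, robust estimation, blocks, only the groups compared, and left-out libraries. Motifs were read from the RefSeq genome R64. The text names every member and shared subunit, the lowest and highest gene of each other list in ethanol, and the genes most like each member. Members and lists were chosen with earlier results of these data known.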

Additional observations from a re-analysis of the deposited data

How the results depend on the processing

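Of 920 member estimates under other settings, 872 kept direction and side of the threshold, 20 moved past it, 0 lost a call, 0 called values changed sign, and 28 values that were not called changed sign, 26 of them in the deletion against wild type in glucose. Members called lower in ethanol numbered 9 or 10 in both strains under every setting run. Members called higher in the deletion in ethanol numbered 0 to 7 on leaving out 1 library, and 0 to 3 for the difference of responses. Over the same fits, all genes called in either direction numbered 1 to 964 and 0 to 844. All genes called higher were not counted apart in these fits. All genes called in glucose for the deletion numbered 1 to 8 across settings, against 2. The cause was not tested.

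Same-numbered libraries did not deviate together: correlations of deviations ran from -0.423 to 0.325 over 19 pairs, and 3 of 14 libraries were closest to their own number. With the replicate number as a block, 9 members were called lower in each strain and 0 between strains, and all genes called for the deletion fell to 1 in either medium. Paired by number within a strain, the ethanol differences of log2 ratios were -0.36 for RPC82/RPC34, -0.57 for RPC82/RPC31 and -0.56 for RPC53/RPC37, each with adjusted p = 0.0521 by exact sign permutation, which 7 pairs cannot take lower here.

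On leaving out 1 library, ethanol differences of log2 ratios ran from -0.0041 to 0.078 for RPO31/RET1. Differences between strains ran from -0.0183 to 0.0639 for RPO31/RET1 and from 0.10 to 0.20 for RPC82/RPC34, the latter past the threshold without deletion glucose replicate 4 (adjusted p = 0.0393) and without wild-type ethanol replicate 3 (adjusted p = 0.019). Read depth is unknown, so counting error could not be set beside these values.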

Other observations

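The genes that share an upstream region with a member did not move as a group. Within 1000 bases, 7 members have a protein-coding gene that starts upstream on the opposite strand. SAS10, DBP7 and LTV1, known in ribosome assembly and divergent from RPC53, RPC37 and RPC25, fell in wild type, with log2 changes of -1.78, -2.06 and -1.43 (adjusted p = 3.36e-08, 1.75e-08 and 3.43e-07, limma), and also in the deletion, with -1.48, -1.60 and -0.97. Their start codons lie 324, 397 and 299 bases from those of the members, so the letters printed for RPC53, RPC37 and RPC25 lie between the start codons of both genes. By contrast, QCR2, a subunit of the respiratory chain 339 bases from RPC82, rose by 2.31 on the log2 scale in wild type and 1.95 in the deletion, while RPC82 fell. RPT5 of the proteasome, 883 bases from RPO31, rose by 0.57 and 0.38. SWM2, 645 bases from RPC34, rose by 0.37 in wild type (adjusted p = 0.00814) and differed by 0.16 in the deletion without passing, and PTP2, a phosphatase gene 467 bases from RET1, passed in neither strain, at -0.02 and -0.19.

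Upstream of RPC17 lies no such coding gene but a gene for a lysine tRNA, itself a product of RNA polymerase III, which starts 195 bases away on the opposite strand. Poly(A) libraries do not measure it. RPC31 and RPC11 had no divergent gene within 1000 bases.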
